A study of Homo sapiens with 6 samples.

Results

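The genes of DNA replication and of the E2F programme were examined in BT549 cells, an established basal-like breast cancer line, after treatment with AS1842856. The 50 members were listed by name for roles in origin licensing, at the replication fork, in nucleotide synthesis or in the E2F family. The rule uses no measured value, but the list was chosen with earlier results of these data known. The members were 50 of 58735 genes in the count table, and all 50 were among the 14338 genes with enough counts to be tested. The study asked which genes depend on FOXO1, a forkhead transcription factor, by blocking its binding to DNA with AS1842856. It also reports that FOXO1 RNAi and gene disruption lowered LEF1 and TCF7, which AS1842856 raised. The study therefore describes AS1842856 as a modulator of FOXO1 and not only an inhibitor. Cells were plated at 100000 per dish and received DMSO, the solvent, or AS1842856 for 48 h, and RNA-Seq was made from 3 libraries of each group, called replicates A, B and C. The labels give the dose as 200 nM, whereas the methods of the study state a higher concentration, a difference that is not resolved here. Both groups were the same parental line, with no added allele or transgene named in the labels.

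DNA replication starts at origins that are licensed in G1 phase, when ORC, CDC6 and CDT1 load the ring-shaped MCM2-7 helicase onto DNA. At the start of S phase the kinases CDC7 and CDK2 turn the loaded rings into active helicases by recruiting CDC45 and GINS, after which the polymerases, the sliding clamp PCNA and the nucleotide supply carry the fork forward. The genes for these proteins are classic targets of E2F transcription factors. RB family proteins hold E2F factors inactive until cyclin-dependent kinases, among them CDK2 with cyclin E, phosphorylate the RB family proteins. E2F1 and E2F2 are activators of this programme, whereas E2F7 and E2F8 are repressors that act later in S phase.

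Library totals ran from 15289500 to 22981832 counts, and the common biological coefficient of variation was 0.0374. VIM, CD44, CAV1 and ZEB1, which mark basal-like mesenchymal cells, were expressed in all 6 libraries, and the luminal or epithelial markers ESR1, PGR, EPCAM and CDH1 were at 8 counts or fewer in every library. The endothelial marker PECAM1 had at most 1 count, and the leukocyte marker PTPRC lay between 0.700 and 3.59 CPM (TMM-scaled counts relative to the library total), with the AS1842856 libraries above the DMSO libraries. The part of these markers in the results was not tested. The study calls the replicates biological, but the labels do not say whether they came from separate cultures, so p-values measure the spread between these libraries. In a bulk culture, fewer cells in S phase and less RNA per cell cannot be told apart.

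Promoter sequences are shown for 4 members that mark the range of responses: E2F2, the member with the largest fall, MCM6, a helicase subunit that fell, and CDT1 and RFC5, the members with the largest rises. Each is the RefSeq window from 250 bases before to 50 bases after a transcription start in GRCh38.p14, written 5′ to 3′ on the strand of the gene. Capitals mark matches to the E2F letters TTTCCCGC, TTTCGCGC, TTTGCCGC or TTTGGCGC on either strand. The windows are chr1:23531184-23531483 (minus strand) for E2F2, chr2:135876394-135876693 (minus strand) for MCM6, chr16:88803539-88803838 (plus strand) for CDT1 and chr12:118016453-118016752 (plus strand) for RFC5.
E2F2: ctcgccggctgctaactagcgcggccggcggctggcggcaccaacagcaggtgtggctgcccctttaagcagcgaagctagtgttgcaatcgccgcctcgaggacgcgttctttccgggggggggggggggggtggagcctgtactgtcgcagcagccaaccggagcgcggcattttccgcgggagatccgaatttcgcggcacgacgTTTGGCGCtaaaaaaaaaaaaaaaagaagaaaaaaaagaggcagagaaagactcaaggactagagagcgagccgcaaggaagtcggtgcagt
MCM6: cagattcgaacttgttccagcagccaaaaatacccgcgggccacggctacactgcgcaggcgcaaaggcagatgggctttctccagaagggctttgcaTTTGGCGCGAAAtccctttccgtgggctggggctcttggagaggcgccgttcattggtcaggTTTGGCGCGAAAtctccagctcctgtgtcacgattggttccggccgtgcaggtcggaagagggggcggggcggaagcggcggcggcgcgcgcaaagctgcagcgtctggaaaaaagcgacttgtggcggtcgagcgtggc
CDT1: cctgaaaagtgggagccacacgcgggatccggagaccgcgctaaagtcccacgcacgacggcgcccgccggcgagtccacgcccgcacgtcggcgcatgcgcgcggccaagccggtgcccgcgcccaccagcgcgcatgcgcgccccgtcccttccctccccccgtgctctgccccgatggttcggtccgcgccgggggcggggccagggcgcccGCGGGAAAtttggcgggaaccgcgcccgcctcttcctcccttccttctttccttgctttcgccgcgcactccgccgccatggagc
RFC5: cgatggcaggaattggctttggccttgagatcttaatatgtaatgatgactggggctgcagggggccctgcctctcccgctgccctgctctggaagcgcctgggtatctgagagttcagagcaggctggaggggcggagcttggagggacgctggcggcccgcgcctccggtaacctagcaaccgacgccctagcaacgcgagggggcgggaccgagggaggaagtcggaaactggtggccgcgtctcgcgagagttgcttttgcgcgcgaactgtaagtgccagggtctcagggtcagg
The MCM6 window held 4 matches, as 2 copies of a stretch in which TTTGGCGC and the reverse complement of TTTCGCGC overlap. E2F2 and CDT1, which moved in opposite directions, held 1 match each. No match was present in the RFC5 window.

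Of the 50 members, 25 fell, 7 rose and 18 did not pass the test (edgeR's quasi-likelihood test, Benjamini-Hochberg adjusted p under 0.05 over all genes tested). Among all 14338 genes tested, 56.0% passed, with 28.4% lower and 27.6% higher, so the treatment moved a large part of the transcriptome in both directions. Members called lower made up 50% of the list and members called higher 14.0%. The median log2 fold change was -0.12 over the members, with quartiles at -0.34 and 0.03, and 0.003 over all genes tested, with quartiles at -0.28 and 0.25. Called falls of more than 0.5 on the log2 scale were found for 8 of the 50 members, a share close to the 13.9% of all genes tested, and called rises of more than 0.5 for 2, where all genes tested gave 9.49%. The groups did not overlap for 35 members, against 59.9% of all genes tested. The AS1842856 libraries lay wholly below the DMSO libraries for 26 members and wholly above for 9, where all genes tested gave 30.3% below and 29.5% above. Summed over the 50 members, the DMSO libraries held 5231, 5246 and 5248 CPM and the AS1842856 libraries 4770, 4777 and 4798 CPM.

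**Figure D1:**
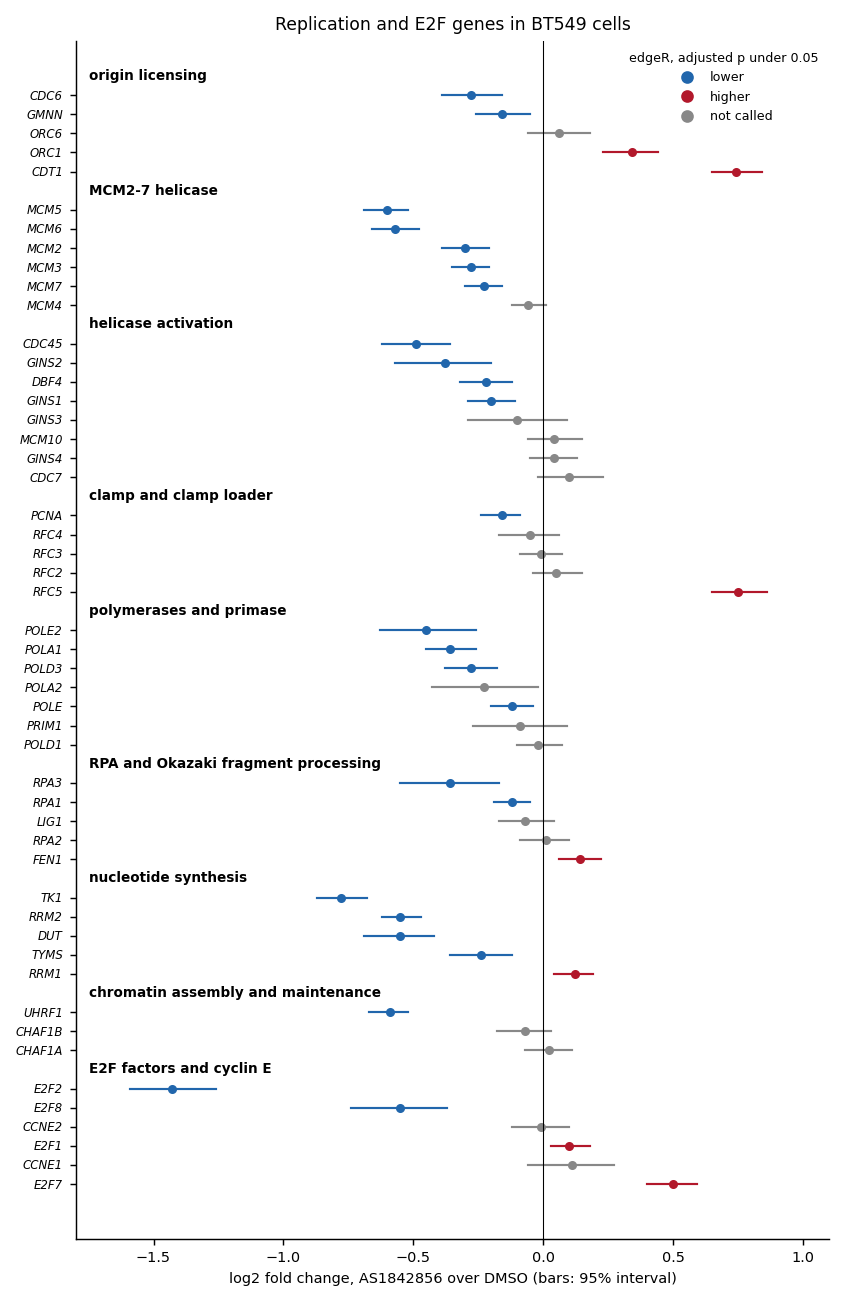
Log2 fold change of each of the 50 members (AS1842856 over DMSO, 3 libraries each), grouped by role, with points for the edgeR estimate and bars for its 95% interval. Blue genes were called lower, red genes higher and grey genes were not called; E2F2 stands apart at -1.43, and CDT1 and RFC5 lie at the other end at 0.74 and 0.75.

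**Figure D2:**
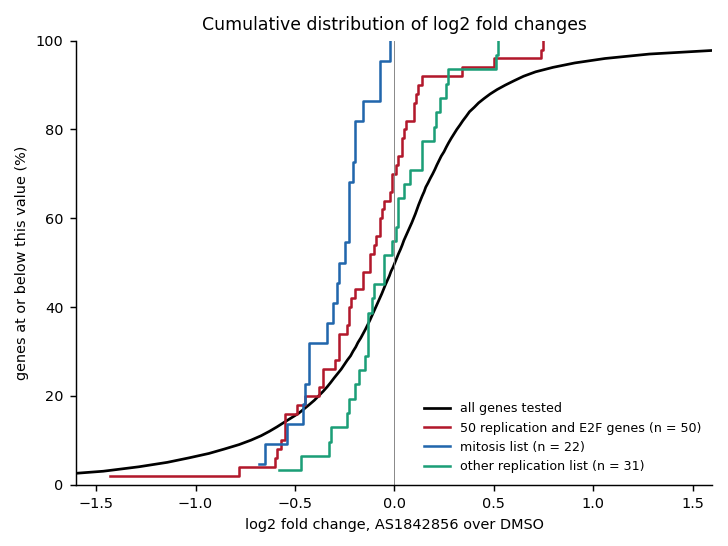
Cumulative share of genes (percent, vertical axis) at or below each log2 fold change (horizontal axis) for all genes tested, the 50 members, and lists of mitosis and other replication genes. The curve of the members lies left of that of all genes over its middle part, with a median of -0.12 against 0.003, while the mitosis list has a median of -0.26 and the other replication list -0.05.

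The E2F factors diverged from each other. E2F2 fell the furthest of the 50 members and E2F8 fell, while E2F7 rose and E2F1 rose slightly. Cyclin E transcripts did not pass the test. Of these 6 genes 33.3% were called lower and 33.3% higher, against 28.4% and 27.6% of all genes tested.

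E2F2 (ENSG00000007968, chromosome 1, 23506430 to 23531220), an activator E2F, was at 36.8, 37.9 and 34.6 CPM in the DMSO libraries and at 14.6, 13.6 and 12.4 CPM in the AS1842856 libraries. The groups did not overlap, and every treated library was below all the control libraries by a wide margin. Treated cells thus held 37.2% of the DMSO level, a log2 fold change of -1.43 (SE 0.08, adjusted p = 1.69e-42). The estimate stayed between -1.48 and -1.37 when each library was left out in turn.

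E2F8, a repressor of the E2F programme, was lower at 21.0, 21.0 and 20.6 CPM in DMSO and 14.6, 13.3 and 14.9 CPM in AS1842856, with no overlap (log2 fold change -0.55, SE 0.09, edgeR adjusted p = 5.33e-08). Its partner repressor E2F7 was at 73.1, 75.8 and 72.4 CPM in DMSO and at 106, 107 and 99.4 CPM in AS1842856. The treated libraries of E2F7 all lay above the control libraries, with a log2 fold change of 0.50 (SE 0.05, edgeR adjusted p = 1.06e-20). E2F1, the best known activator, moved from 136 CPM ± 3.25 (SD, n = 3) to 146 CPM ± 3.34, a log2 fold change of 0.10 (SE 0.04, edgeR adjusted p = 0.0207). This small rise lost its call with DESeq2 (adjusted p = 0.0544), with no filter on low counts (0.108), without DMSO replicate A (0.109) and without AS1842856 replicate C (0.108).

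CCNE1 and CCNE2 encode the cyclin E proteins that switch on CDK2 at the G1/S boundary. CCNE2 was at 49.1, 56.1 and 52.0 CPM in DMSO and at 48.5, 55.2 and 51.2 CPM in AS1842856, so the groups overlapped almost fully. Its log2 fold change was -0.01, with a 95% interval from -0.12 to 0.10. INTS8 lies on the opposite strand and shares 1629 exonic bases with CCNE2 while holding 284% of its counts, and the use of strand in counting is not given in the sources used here, so the CCNE2 value is uncertain. CCNE1 was at 22.8, 19.7 and 22.8 CPM in DMSO and at 24.7, 23.0 and 22.9 CPM in AS1842856, and did not pass the test (log2 fold change 0.11, 95% interval -0.06 to 0.27).

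The FPKM scale divides by the length of all annotated exons of a gene, which need not be that of the transcripts present. Levels on this scale therefore compare genes only roughly. By FPKM in DMSO, E2F1 was highest of the 4 E2F members at 54.0, followed by E2F7 at 11.6, E2F2 at 6.63 and E2F8 at 5.01. The ratio of E2F2 to E2F1 was 0.127, 0.125 and 0.116 in the DMSO libraries and 0.0461, 0.0436 and 0.0380 in the AS1842856 libraries. For the 2 repressors, the ratio of E2F7 to E2F8 was 2.28, 2.37 and 2.31 in DMSO and 4.74, 5.28 and 4.39 in AS1842856. E2F1 over the sum of E2F7 and E2F8 moved from 3.24 ± 0.0724 (SD, n = 3) to 2.93 ± 0.137, again without overlap. An exact two-sided permutation test gave p = 0.10 for each of these 3 ratios, the smallest that 3 against 3 libraries allow. Among members 16 such ratios were computed, 9 of them planned. E2F2 over E2F1 and E2F7 over E2F8 were not planned but chosen after their values were seen, so their p-values are no independent evidence.

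Origin licensing genes moved in both directions. ORC1 and CDT1 rose, CDC6 and geminin fell, and ORC6 did not pass the test. Of these 5 genes 40.0% were called lower and 40.0% higher. Calls in both directions were also common among all genes tested, at 28.4% lower and 27.6% higher. Since geminin is the inhibitor that binds CDT1 after S phase begins, the transcripts of the loader and of its inhibitor moved apart.

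CDT1 (ENSG00000167513, chromosome 16, 88803213 to 88809258), which brings MCM2-7 to origins, was at 64.2, 62.3 and 63.6 CPM in DMSO and at 108, 106 and 105 CPM in AS1842856. The groups were far apart relative to their spread, and treated cells held 168% of the DMSO level (log2 fold change 0.74, SE 0.05, edgeR adjusted p = 4.37e-37). GMNN, which encodes geminin, moved from 70.0 CPM ± 2.15 to 62.8 CPM ± 1.33 (log2 fold change -0.16, edgeR adjusted p = 0.00633). On the FPKM scale the ratio of CDT1 to GMNN was 0.701, 0.663 and 0.653 in the DMSO libraries and 1.28, 1.23 and 1.27 in the AS1842856 libraries. The ratio was thus 1.87 times as high after treatment, with no overlap and an exact two-sided permutation p of 0.10.

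ORC1, the subunit of the origin recognition complex whose level cycles, was at 58.2, 58.1 and 57.0 CPM in DMSO and at 72.1, 72.4 and 74.4 CPM in AS1842856. All treated libraries were above all controls, with a log2 fold change of 0.34 (SE 0.05, edgeR adjusted p = 2.71e-09). CDC6, the ATPase that works with ORC in loading the helicase, fell from 52.5 CPM ± 3.12 to 43.4 CPM ± 2.53, a log2 fold change of -0.28 (edgeR adjusted p = 1.51e-05). ORC6 was at 43.2 CPM ± 2.52 and 45.2 CPM ± 2.36, and its log2 fold change of 0.06 had a 95% interval from -0.06 to 0.18.

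Most MCM2-7 helicase subunits fell, by unequal amounts. Of the 6 subunits, 5 fell and MCM4 did not pass the test, with a median log2 fold change of -0.29. The 5 that fell are 83.3% of the subunits, where 28.4% of all genes tested were lower. The summed level of the 6 subunits was 1636, 1634 and 1648 CPM in DMSO and 1407, 1399 and 1413 CPM in AS1842856.

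MCM5 (ENSG00000100297) was at 147, 136 and 141 CPM in the DMSO libraries and at 91.6, 95.2 and 92.8 CPM in the AS1842856 libraries. Its groups did not overlap, and treated cells held 66.0% of the control level (log2 fold change -0.60, SE 0.04, edgeR adjusted p = 8.30e-32). MCM6 (ENSG00000076003), whose promoter with 4 E2F matches is printed above, was at 101, 102 and 103 CPM in DMSO and at 68.2, 70.2 and 67.2 CPM in AS1842856. The drop in MCM6 was of the same order, at 67.3% of the control level (log2 fold change -0.57, SE 0.05, edgeR adjusted p = 2.86e-25). MCM2, MCM3 and MCM7 fell less, with log2 fold changes of -0.30, -0.28 and -0.23. MCM4 was at 585, 617 and 606 CPM in DMSO and at 585, 577 and 576 CPM in AS1842856. The MCM4 groups met at 585 CPM, and its log2 fold change of -0.06 had a 95% interval from -0.12 to 0.01. Without DMSO replicate A, MCM4 was called lower at -0.08 (edgeR adjusted p = 0.0362).

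The proteins form a ring with 1 copy of each subunit, but the transcripts were far from equal. In DMSO, MCM7, MCM4 and MCM3 were at 88.6, 85.9 and 80.8 FPKM, whereas MCM6, MCM2 and MCM5 were at 24.6, 21.4 and 19.1 FPKM. Before division by length, MCM5 was at 141 CPM in DMSO, above MCM2 at 106 CPM and MCM6 at 102 CPM. Their order thus depends on the exonic length used. The less abundant group held both of the subunits with the largest falls, and the spread widened after treatment. MCM5 over the mean of the 6 subunits moved from 0.358 ± 0.0137 (SD, n = 3) to 0.279 ± 0.00656, and MCM6 from 0.460 ± 0.00332 to 0.365 ± 0.0102. MCM4 over the same mean moved the other way, from 1.61 ± 0.0486 to 1.82 ± 0.0218. The MCM7 share overlapped between the groups, at 1.66 ± 0.0360 and 1.67 ± 0.0450. For MCM5, MCM6 and MCM4 the exact two-sided permutation p was 0.10, and for MCM7 it was 0.50.

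**Figure D3:**
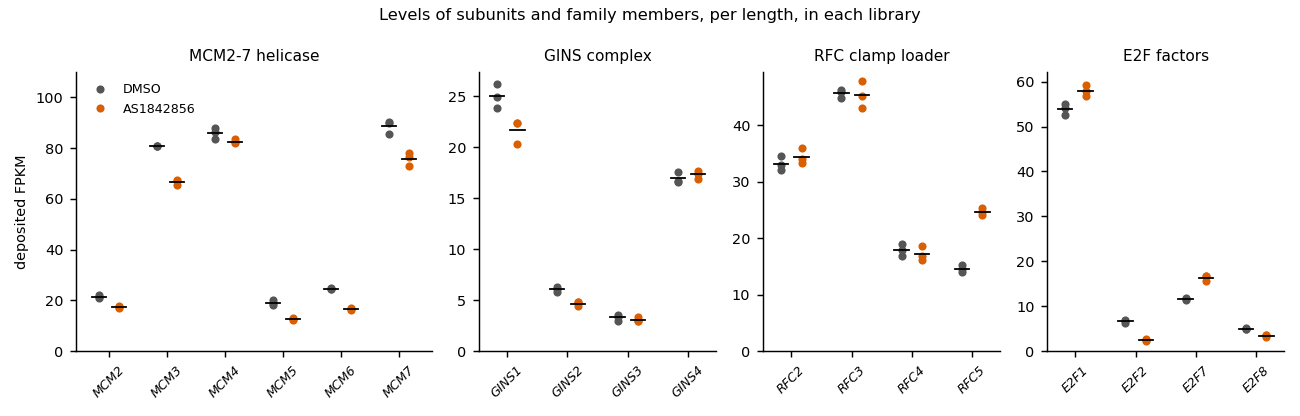
Deposited FPKM (per length) of the MCM2-7, GINS and RFC subunits and of the E2F members in each of the 3 DMSO (grey) and 3 AS1842856 (orange) libraries, with a line at each mean. MCM3, MCM4 and MCM7 lie well above MCM2, MCM5 and MCM6, RFC5 is the RFC subunit whose groups separate (14.6 to 24.7), and E2F2 falls from 6.63 to 2.47 while E2F7 rises from 11.6 to 16.4.

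The 8 genes for helicase activation gave 4 falls, 0 rises and 4 members that did not pass. For comparison, 28.4% of all genes tested were called lower and 27.6% higher. CDC45, GINS1, GINS2 and DBF4 fell, while MCM10, GINS3, GINS4 and CDC7 did not pass the edgeR test or any alternative, and their 95% intervals all included 0. Hence the GINS complex and the CDC7 kinase with its DBF4 activator each had members on both sides of the threshold.

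CDC45, which joins MCM2-7 and GINS in the active helicase, was at 45.1, 43.0 and 47.3 CPM in DMSO and at 30.8, 33.6 and 32.0 CPM in AS1842856. No library of one group reached the other, and the log2 fold change was -0.49 (SE 0.07, edgeR adjusted p = 6.61e-12). GINS2 was at 20.0, 19.0 and 20.6 CPM in DMSO and at 15.7, 14.5 and 15.7 CPM in AS1842856, without overlap (log2 fold change -0.38, SE 0.09, edgeR adjusted p = 1.55e-04). GSE1, on the opposite strand, shares 7 exonic bases with GINS2 and held 233% of its counts. The log2 fold change of GSE1 was -1.76, and its part in the GINS2 counts was not tested. GINS1 had a log2 fold change of -0.20. For GINS3 and GINS4 the values were -0.10 and 0.04, with 95% intervals from -0.29 to 0.09 and from -0.05 to 0.13. GINS3 was among the least abundant members, at 3.30 FPKM in DMSO.

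DBF4 fell from 73.9 CPM ± 3.26 to 63.3 CPM ± 2.54, a log2 fold change of -0.22 (edgeR adjusted p = 6.36e-05). Its partner CDC7 was at 38.3, 37.2 and 39.6 CPM in DMSO and at 42.2, 40.9 and 40.8 CPM in AS1842856. The treated CDC7 libraries all lay above the controls, but the log2 fold change of 0.10 did not pass the test (95% interval -0.02 to 0.23, edgeR adjusted p = 0.160). MCM10, a scaffold that helps start the fork, was at 60.0 CPM ± 2.10 and 61.7 CPM ± 1.24 (log2 fold change 0.04).

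Among the genes for the sliding clamp and its loader, PCNA fell and RFC5 rose. RFC2, RFC3 and RFC4, the other small subunits of the loader, did not pass the test, with log2 fold changes of 0.05, -0.01 and -0.05. EIF4A2, on the opposite strand, shares 21 exonic bases with RFC4 and held 470% of its counts, so the RFC4 value is uncertain.

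RFC5 (ENSG00000111445, chromosome 12, 118013588 to 118033130) was at 46.0, 47.9 and 49.7 CPM in DMSO and at 80.2, 79.1 and 82.8 CPM in AS1842856. The groups were widely separated, and treated cells held 169% of the control level (log2 fold change 0.75, SE 0.05, edgeR adjusted p = 1.65e-32). WSB2 lies on the opposite strand, shares 186 exonic bases with RFC5, held 247% of its counts and itself rose by 0.50 on the log2 scale, so part of the RFC5 counts could belong to WSB2, and this was not tested. On the FPKM scale RFC5 over the mean of RFC2, RFC3 and RFC4 was 0.433, 0.453 and 0.477 in DMSO and 0.758, 0.757 and 0.775 in AS1842856.

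PCNA, the clamp itself and the most abundant of the 50 members per length, was at 205, 211 and 209 CPM in DMSO and at 181, 187 and 190 CPM in AS1842856. Its groups did not overlap, yet the change was small, with a log2 fold change of -0.16 (SE 0.04, edgeR adjusted p = 7.99e-05). RFC3 was at 134, 133 and 130 CPM in DMSO and at 138, 125 and 131 CPM in AS1842856. The RFC3 groups overlapped, and its 95% interval ran from -0.09 to 0.07.

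All 7 polymerase and primase genes had log2 fold changes below 0. POLA1, POLD3, POLE and POLE2 fell, and POLA2, PRIM1 and POLD1 did not pass, with log2 fold changes of -0.23, -0.09 and -0.02. The median of the 7 genes was -0.23. Falls were called for 57.1% of the 7 genes, against 28.4% of all genes tested.

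POLE2, an accessory subunit of the leading strand polymerase, was at 21.6, 21.2 and 19.1 CPM in DMSO and at 14.4, 16.5 and 14.3 CPM in AS1842856 (log2 fold change -0.45, SE 0.09, edgeR adjusted p = 9.59e-06). POLA1, the catalytic subunit of polymerase alpha, which makes the start of each new strand with primase, was at 92.9, 94.6 and 88.2 CPM in DMSO and at 71.6, 73.0 and 70.7 CPM in AS1842856 (log2 fold change -0.36, SE 0.05, edgeR adjusted p = 1.61e-11). Neither gene had overlapping groups. POLD3, a subunit of polymerase delta, fell by 0.28 on the log2 scale, from 76.0 CPM ± 1.11 to 62.6 CPM ± 3.93, whereas the catalytic POLD1 was at 109 CPM ± 2.36 and 108 CPM ± 3.99. The interval for POLD1 ran from -0.10 to 0.07.

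POLE, the catalytic subunit of polymerase epsilon, was 92.1% of the control level (log2 fold change -0.12, edgeR adjusted p = 0.00845). Its call was lost without AS1842856 replicate B (adjusted p = 0.112) and with limma on log2(FPKM + 1) (0.0627). POLA2 was at 15.3, 13.8 and 13.7 CPM in DMSO and at 12.3, 12.7 and 11.7 CPM in AS1842856. The POLA2 groups did not overlap, but the log2 fold change of -0.23 missed the threshold (95% interval -0.43 to -0.02, edgeR adjusted p = 0.0585). PRIM1, the catalytic primase subunit, shares 33 exonic bases with NACA, which held 2163% of its counts, so its value is uncertain.

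RPA coats single-stranded DNA, while FEN1 and LIG1 trim and join Okazaki fragments on the lagging strand. RPA1 and RPA3 fell, FEN1 rose slightly, and RPA2 and LIG1 did not pass the test.

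RPA3, the smallest RPA subunit, was at 20.1, 15.2 and 17.8 CPM in DMSO and at 14.2, 13.7 and 13.9 CPM in AS1842856. The groups came close without overlapping, and the DMSO libraries were widely spread (log2 fold change -0.36, SE 0.10, edgeR adjusted p = 7.80e-04). UMAD1, which rose by 0.44 on the log2 scale, shares 118 exonic bases with RPA3 on the opposite strand and held 56.5% of its counts. RPA1 moved by -0.12, and RPA2 was at 86.4, 81.9 and 81.9 CPM in DMSO and at 88.0, 83.4 and 80.2 CPM in AS1842856. For RPA2 the groups overlapped and the log2 fold change was 0.01 (95% interval -0.09 to 0.10).

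FEN1, the flap nuclease, was at 149, 147 and 148 CPM in DMSO and at 159, 168 and 162 CPM in AS1842856. Treated libraries were all higher, with a log2 fold change of 0.14 (SE 0.04, edgeR adjusted p = 0.00109). FADS2, which fell by 1.35 on the log2 scale, shares 49 exonic bases with FEN1 on the same strand. LIG1, the ligase, was at 64.7 CPM ± 0.924 and 61.8 CPM ± 4.98, with a 95% interval of its log2 fold change from -0.17 to 0.04.

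Nucleotide synthesis was the role group with the lowest median, at -0.55, and all 5 of its members passed the test. Among all genes tested, 56.0% passed. TK1, RRM2, DUT and TYMS fell and RRM1 rose. TK1, TYMS and DUT all serve the supply of thymidine nucleotides: TK1 salvages thymidine, TYMS makes dTMP from dUMP, and DUT makes that dUMP while keeping uracil out of DNA.

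TK1 (ENSG00000167900, chromosome 17, 78174075 to 78187233) was at 115, 114 and 110 CPM in DMSO and at 65.2, 67.0 and 65.6 CPM in AS1842856. Treated cells held 58.3% of the control level, the second largest fall among the members after E2F2 (log2 fold change -0.78, SE 0.05, edgeR adjusted p = 2.59e-40). Per length it went from the fifth most abundant member in DMSO, at 60.3 FPKM, to rank 11 in AS1842856, at 35.2 FPKM. DUT was at 39.8, 47.9 and 43.1 CPM in DMSO and at 28.8, 29.5 and 30.3 CPM in AS1842856 (log2 fold change -0.55, SE 0.07, edgeR adjusted p = 8.58e-14). TYMS fell from 45.6 CPM ± 0.871 to 38.5 CPM ± 0.145 (log2 fold change -0.24, edgeR adjusted p = 3.67e-04). ENOSF1, on the opposite strand, shares 967 exonic bases with TYMS and held 42.4% of its counts.

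Ribonucleotide reductase makes all deoxynucleotides from a large subunit, RRM1, and a small subunit, RRM2, whose level rises in S phase. RRM2 was at 201, 212 and 211 CPM in DMSO and at 143, 143 and 140 CPM in AS1842856, with no overlap (log2 fold change -0.55, SE 0.04, edgeR adjusted p = 1.05e-31). RRM1 was at 174, 181 and 183 CPM in DMSO and at 193, 199 and 190 CPM in AS1842856 (log2 fold change 0.12, edgeR adjusted p = 0.00675). The RRM1 call was lost without DMSO replicate A (adjusted p = 0.0554) and without AS1842856 replicate B (0.0689). On the FPKM scale the ratio of RRM2 to RRM1 went from 0.906, 0.918 and 0.907 to 0.584, 0.566 and 0.579. An exact two-sided permutation test gave p = 0.10, but this ratio was chosen after its values were seen. RRM2B, the alternative small subunit and not a member, rose from 72.6 to 91.5 CPM (log2 fold change 0.33, edgeR adjusted p = 2.37e-10).

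UHRF1, which reads hemimethylated DNA behind the fork and brings in the maintenance methyltransferase, fell, while the CAF-1 histone chaperone genes CHAF1A and CHAF1B did not pass the test. UHRF1 was at 202, 207 and 201 CPM in DMSO and at 136, 137 and 132 CPM in AS1842856. The groups were far apart, and treated cells held 66.3% of the control level (log2 fold change -0.59, SE 0.04, edgeR adjusted p = 1.65e-35). CHAF1A and CHAF1B had log2 fold changes of 0.02 and -0.07, with 95% intervals from -0.07 to 0.11 and from -0.18 to 0.03.

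**Figure D4:**
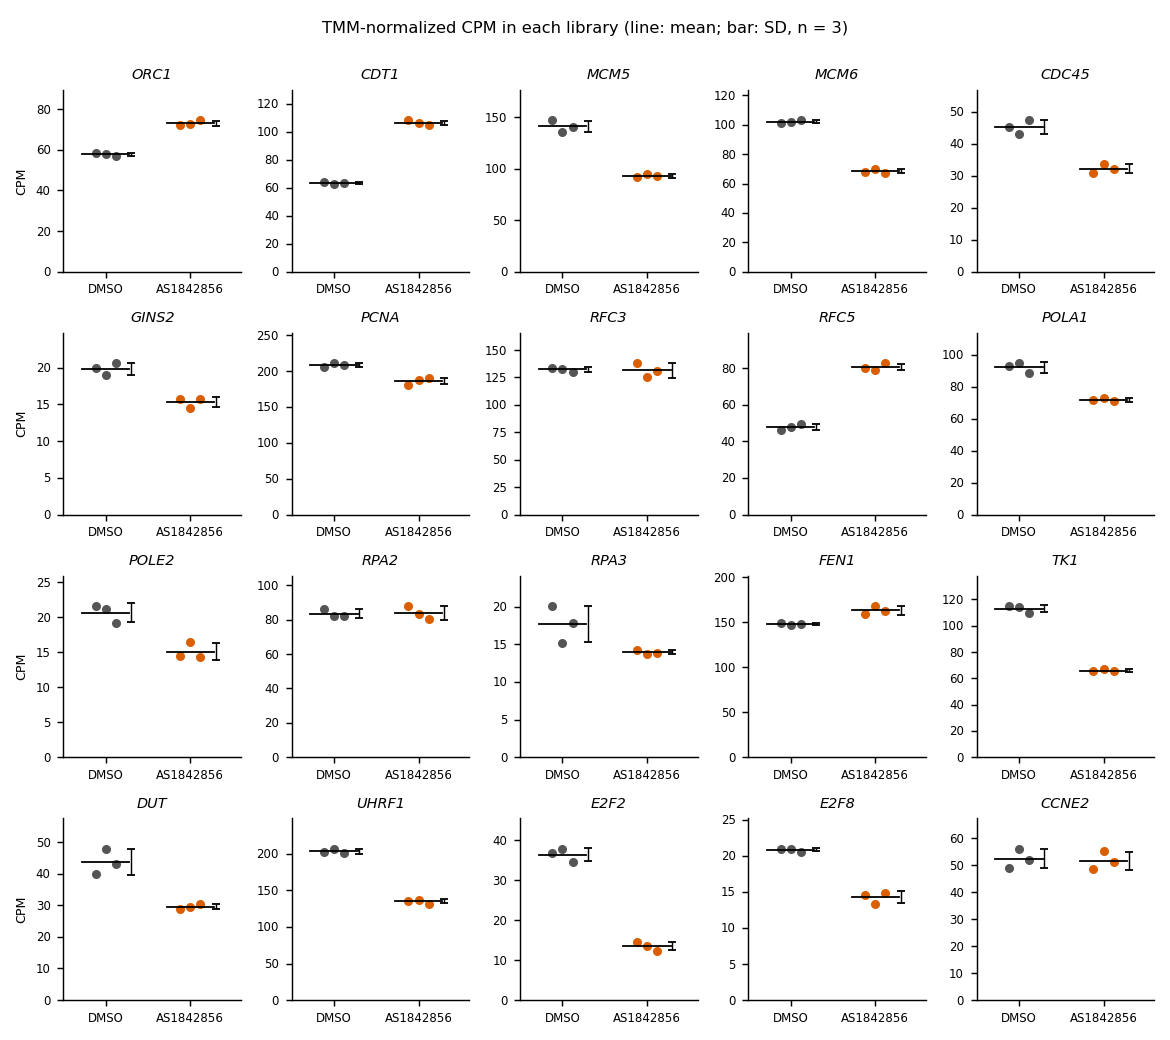
CPM (TMM-scaled, axis from 0) in each of the 3 DMSO (grey) and 3 AS1842856 (orange) libraries for 20 members, with a line at the mean and a bar for the SD. CDT1, ORC1, RFC5 and FEN1 are higher after treatment, RFC3, RPA2 and CCNE2 overlap between groups, and the other members shown are lower, with E2F2 at 36.4 against 13.5 CPM.

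**Figure D5:**
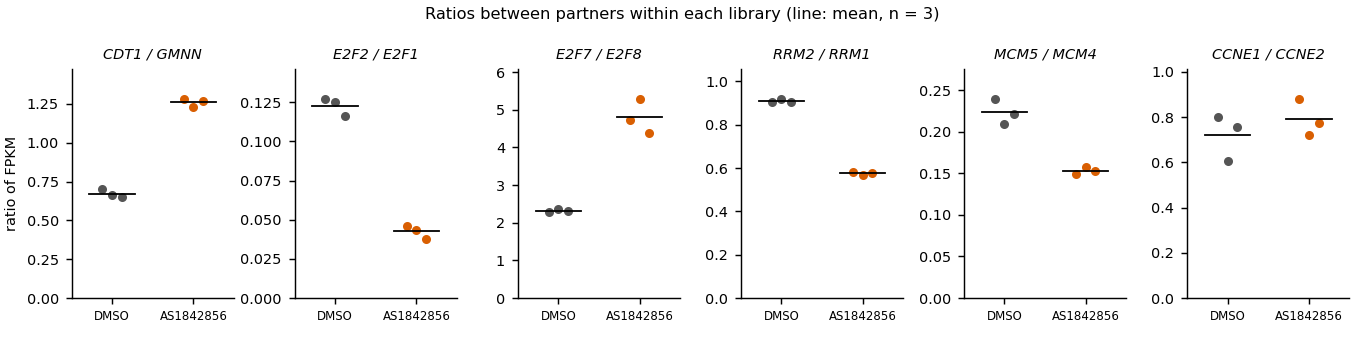
Ratios of FPKM between partner genes within each library (DMSO grey, AS1842856 orange, line at the mean of 3, axes from 0). The groups separate for CDT1 over GMNN, E2F2 over E2F1, E2F7 over E2F8, RRM2 over RRM1 and MCM5 over MCM4, and overlap for CCNE1 over CCNE2 (0.721 against 0.790 on average).

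Across the 50 members the log2 fold change varied little with the level or the length of a gene. Pearson's r with the log2 FPKM in DMSO was 0.09 (Spearman's rho 0.10), and with log2 exonic length it was -0.11 (rho -0.16). These values describe genes of the same 6 libraries, which are not independent replicates. Order among the members by FPKM was led by PCNA in both groups (141 and 126), and POLA2 was last in both (2.48 and 2.12). CDT1 moved from rank 22 to 13 and RFC5 from rank 29 to 17, while MCM5 moved from rank 21 to 29 and MCM6 from 17 to 25.

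RefSeq promoter windows were matched for 42 members, with 57 windows in all. Entries were missing for MCM4, MCM5, GINS4, POLD3, RPA2, RPA3, E2F8 and CCNE2. At least 1 match to the E2F letters was present for 23 of the 42 members (54.8%), against 3.99% of 27305 genes with a window and 6.8% of the 10149 tested genes with a window. Since genes of the roles used to draw up the list are classic E2F targets, this share is no independent evidence. Matches were found for 16 of 21 members that fell, 2 of 7 that rose and 5 of 14 that did not pass the test. Members that fell had more windows per gene, and by window the shares were 50%, 28.6% and 31.2%. TK1, RRM2 and CDC45, which fell, had no match in any of their windows, which says only that these exact letters were not there.

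The other letters searched on both strands were CCAAT, the NF-Y letters, TTTGAA or TTCGAA, which are the CHR letters of genes expressed in mitosis, and GTAAACA, a forkhead core bound by FOXO proteins. CCAAT was in a window of 57.1% of members, against 39.7% of all genes with a window and 43.3% of tested genes. CHR letters were in 9.52% of members, against 19.5% of all genes, 15.4% of tested genes and 72.2% of the mitosis list. GTAAACA was in 2.38% of members, against 4.19% of all genes and 3.49% of tested genes, and by window the shares were close, at 3.51% for members and 3.42% for all promoters. The single member with GTAAACA was MCM7, which fell by 0.23 on the log2 scale. These matches are descriptions of letters and not of bound sites.

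Further genes of the same processes that are not members moved in both directions. Of 31 other replication genes, 10 fell, 7 rose and 14 did not pass the test, with a median log2 fold change of -0.05. These shares, 32.3% lower and 22.6% higher, were near the 28.4% and 27.6% of all genes tested. TICRR, which acts with TOPBP1 in loading CDC45, fell from 28.7 to 19.4 CPM (log2 fold change -0.58, edgeR adjusted p = 1.10e-10), although KIF7 overlaps it and also fell, by 0.65. DSCC1, a subunit of an alternative clamp loader, rose from 63.0 to 90.0 CPM (0.51, edgeR adjusted p = 3.94e-20). Of 21 other nucleotide synthesis genes, 7 fell, 7 rose and 7 did not pass, with a median of -0.09. The 33.3% lower and 33.3% higher compare with the same 28.4% and 27.6%. GART, a purine synthesis enzyme, had the largest fall at -0.41, and DCK, the deoxycytidine salvage kinase, the largest rise at 0.58. MOB1B shares 199 exonic bases with DCK on the same strand, held 113% of its counts and itself rose by 0.46. SON shares 275 exonic bases with GART on the opposite strand, held 183% of its counts and had a log2 fold change of -0.13. The part of MOB1B and SON in these counts was not tested.

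Around the E2F members, 12 other E2F, DP and pocket protein genes gave 4 falls, 4 rises and 4 that did not pass. Their median was 0.04. At 33.3% lower and 33.3% higher, this list was near the 28.4% and 27.6% of all genes tested. RBL2, a pocket protein of resting cells, fell from 29.5 to 20.4 CPM (log2 fold change -0.53, edgeR adjusted p = 9.39e-10), and RB1 fell from 31.6 to 24.3 CPM (-0.39, edgeR adjusted p = 2.37e-06). E2F5 had the largest rise, from 24.4 to 36.8 CPM (0.59, edgeR adjusted p = 1.95e-13), and E2F3, the remaining activator E2F, rose from 92.6 to 110 CPM (0.26, edgeR adjusted p = 1.50e-07). MYBL2, an E2F target that helps to switch on mitotic genes, fell from 674 to 480 CPM (-0.49, edgeR adjusted p = 1.38e-33). The activators E2F1, E2F2 and E2F3 therefore did not move in 1 direction.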

How the data were processed

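RNA-Seq was measured in 3 DMSO and 3 AS1842856 libraries of BT549 cells. The authors deposited raw counts per gene and, for each library, FPKM values, which divide by exonic length and depth. The study's methods state mapping with STAR, whereas the submitters' processing notes name CASAVA, Bowtie 0.12.2 and GRCh38. The counting tool and the use of strand are not given in the sources used here. All 58735 gene identifiers were those of GENCODE release 29, from which symbols, positions and exon overlaps were taken.

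Groups were compared on the counts by edgeR 4.0.16 under R 4.3.3 (filterByExpr with minimum count 10 and minimum total 15, TMM, robust glmQLFit, glmQLFTest), with Benjamini-Hochberg adjustment over 14338 genes and a threshold of 0.05. Levels between genes and ratios used the deposited FPKM. The fit was tested on simulated data. Alternatives were DESeq2 1.42.0, other scaling, other filters, a replicate block, limma 3.58.1 on log2(FPKM + 1) or log2(FPKM + 0.1) and leaving out each library. Replicates differed by more than sampling noise (chi-square per degree of freedom 2.37 to 3.28). Library totals of 15289500 to 22981832 counts set the precision, and intervals cover the spread between libraries and counting error only.

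All 50 members are accounted for, with library values for the 2 members with the largest changes in each role group (1 in the group of 3), for the 3 members with the smallest changes and for PCNA; context lists are named by their largest called fall and rise, of which 1 is not reported here. Genes named outside that rule, which are RRM2B, KIF7, RB1, E2F3, MYBL2, CDK6, CDKN1B, PLK1, CCND2 and CDKN1C, the library values of E2F7, CCNE1, MCM4, CDC7, POLA2, RRM1 and RRM2, and 7 of the 16 ratios were chosen after their values were seen. Members and lists were chosen with earlier results of these data known.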

Additional observations from a re-analysis of the deposited data

How the results depend on the processing

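Of 32 members called, 27 were called in all 15 alternatives (22 lower, 5 higher), and the exceptions were E2F1, POLE, RRM1, RPA1 and RPA3. RPA1 and RPA3 lost their call with limma on log2(FPKM + 1) and no filter (adjusted p = 0.0842 and 0.0589), and POLA2 gained one among genes with a mean of at least 50 counts (0.0474). Members called lower numbered 22 to 26 and members called higher 5 to 7 over all alternatives. The members' median of -0.12 became -0.13 with no filter and -0.11 with limma on log2(FPKM + 1), with or without a filter, and lay between -0.16 and -0.12 when a library was left out; the cause was not tested. The median of the G1/S list, 0.03, was near 0 throughout. It turned to -0.02 with no filter and to -0.01 with DESeq2 and without DMSO replicate B. The fits with no filter and with DESeq2 also take in CDKN1C, which the main filter left out, so these medians are over another set of genes. Between -0.020 and 0.013, the correlations of same-letter libraries gave no sign of pairing, and a replicate block left 25 members lower and 7 higher, changed the call of no member, and called 7862 genes in place of 8029. How depth bears on the members that were not called was not tested.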

Other observations

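Among tested genes of the G1/S switch, CCND1 changed the most. Of 11 tested G1/S cyclin, CDK and inhibitor genes, 4 fell, 4 rose and 3 did not pass edgeR's test. The median log2 fold change was 0.03. The 36.4% lower and 36.4% higher compare with 28.4% and 27.6% of all genes tested. CCND1, which encodes cyclin D1, was at 189, 208 and 207 CPM in DMSO and at 642, 656 and 634 CPM in AS1842856 (log2 fold change 1.68, SE 0.04, edgeR adjusted p = 3.60e-121). CDKN2C, an inhibitor of CDK4 and CDK6, fell from 439 to 251 CPM (-0.80), and CDK6 fell from 205 to 134 CPM (-0.62). CDKN1B, which encodes the CDK2 inhibitor p27, fell from 67.9 to 45.3 CPM (-0.58). CCND2 had no count in any library and CDKN1C had at most 4 counts, and neither was tested.

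Mitotic genes were mostly lower: of 22, 19 fell and 3 did not pass edgeR's test. The 86.4% called lower compare with 28.4% of all genes tested. All 22 had log2 fold changes at or below -0.02, and the median was -0.26. NUF2, a kinetochore protein, had the largest fall, from 125 to 78.1 CPM (log2 fold change -0.68, edgeR adjusted p = 2.07e-35), and PLK1, a mitotic kinase, was at 202 and 199 CPM (-0.02). Summed over the list, the level was 5404, 5526 and 5571 CPM in DMSO and 4377, 4481 and 4347 CPM in AS1842856. Of 16 tested repair and checkpoint genes linked to E2F, 5 fell, 1 rose and 10 did not pass, with a median of -0.05. That is 31.2% lower and 6.25% higher, against 28.4% and 27.6% of all genes tested. BLM, a helicase of recombination, rose by 0.45 on the log2 scale. Whether these lists differ from the 50 replication and E2F genes was not tested.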
